A study of Homo sapiens with 18 samples.

Results

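In the human line GM12878, 48 protein-coding genes had a mean normalised read count of at least 80 after knockout of an NF-kB subunit and under 30 in the control. They were chosen by those 2 means, as the genes with the highest of 5 knockout means at or above 80. They were 48 of 15380 protein-coding genes in the table, 4777 of which had a control mean under 30. HSPA6, GBP6 and SLC16A5 met both thresholds too and were left out by name. The knockout that carried the high mean was the RelB-labelled group for 38 of the genes and the p52 knockout for 8. ERBB4 was the single gene highest in the p50 knockout and ITGA9 the single gene highest in the cRel-labelled group. 0 of the 48 were highest in the RelA knockout. Because both means chose the genes, their difference from the control is a description and carries no test.

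GM12878 is a lymphoblastoid B-cell line, transformed by Epstein-Barr virus (EBV). Cells received a lentivirus with a single-guide RNA against cRel (gene REL), p50 (NFKB1), p52 (NFKB2), RelA (RELA) or RelB (RELB), or a non-targeting guide as the control, and polyadenylated RNA was sequenced from 3 libraries of each of the 6 groups. All groups, the control included, carried a guide, were labelled wild type for LMP1 and were selected for 5 days with puromycin (3 µg/ml). The labels' protocols state an immunoblot check of each knockout. The labels call the libraries biological replicates and do not say whether they were separate cultures, so p-values measure the spread between these libraries. The sources used here give neither the number of guides per subunit nor the share of edited cells.

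NF-kB is a family of dimeric transcription factors. RelA, RelB and cRel carry an activation domain, whereas p50 and p52, cut from longer precursors, lack one, so that dimers of these alone can occupy DNA without activating transcription. In EBV-transformed B cells the viral membrane protein LMP1 signals much like a constantly engaged CD40 receptor and keeps both arms of the pathway active, the canonical arm of RelA, cRel and p50 and the non-canonical arm of RelB and p52.

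Start-site sequences show what the genes look like at their 5′ ends, from 250 bases before to 50 after the annotated start (RefSeq, GRCh38.p14, 31 of the 48 genes matched). HES1 (chr3:194135898-194136197, plus strand) and LAMB3 (chr1:209652376-209652675, minus strand), both highest in the RelB-labelled libraries, are shown because they held the kB consensus, the motif NF-kB dimers bind. CALD1 (chr7:134779384-134779683, plus strand) is shown as the RelB-labelled gene with the highest mean among those matched, L1CAM (chrX:153875895-153876194, minus strand) as the highest of the p52 knockout and ERBB4 (chr2:212538753-212539052, minus strand) as that of the p50 knockout. GDF15 (chr19:18385908-18386207, plus strand) is shown for its TATAAA. Capitals mark the motif matches on either strand, and the second run of capitals in LAMB3 holds 2 overlapping matches of the kB consensus.
HES1: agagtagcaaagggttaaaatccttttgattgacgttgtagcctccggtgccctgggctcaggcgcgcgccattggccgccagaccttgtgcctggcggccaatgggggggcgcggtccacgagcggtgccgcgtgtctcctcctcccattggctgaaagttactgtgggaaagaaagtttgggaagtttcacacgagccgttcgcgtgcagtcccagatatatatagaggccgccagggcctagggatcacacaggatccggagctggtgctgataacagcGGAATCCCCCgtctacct
LAMB3: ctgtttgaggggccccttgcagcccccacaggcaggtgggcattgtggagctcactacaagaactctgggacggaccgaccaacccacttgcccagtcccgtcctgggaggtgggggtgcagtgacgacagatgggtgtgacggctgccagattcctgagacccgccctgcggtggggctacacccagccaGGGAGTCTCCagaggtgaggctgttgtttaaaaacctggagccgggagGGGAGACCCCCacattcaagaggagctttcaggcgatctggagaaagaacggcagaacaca
CALD1: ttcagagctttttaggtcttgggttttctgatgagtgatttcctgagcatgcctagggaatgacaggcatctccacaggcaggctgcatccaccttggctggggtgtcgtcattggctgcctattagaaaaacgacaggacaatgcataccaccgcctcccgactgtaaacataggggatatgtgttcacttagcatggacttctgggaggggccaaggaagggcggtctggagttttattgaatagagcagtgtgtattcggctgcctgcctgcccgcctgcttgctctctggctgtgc
L1CAM: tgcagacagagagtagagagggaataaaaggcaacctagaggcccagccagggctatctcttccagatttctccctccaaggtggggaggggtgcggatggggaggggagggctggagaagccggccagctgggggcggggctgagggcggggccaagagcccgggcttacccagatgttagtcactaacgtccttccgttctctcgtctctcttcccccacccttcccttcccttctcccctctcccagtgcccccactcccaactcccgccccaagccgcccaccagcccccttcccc
ERBB4: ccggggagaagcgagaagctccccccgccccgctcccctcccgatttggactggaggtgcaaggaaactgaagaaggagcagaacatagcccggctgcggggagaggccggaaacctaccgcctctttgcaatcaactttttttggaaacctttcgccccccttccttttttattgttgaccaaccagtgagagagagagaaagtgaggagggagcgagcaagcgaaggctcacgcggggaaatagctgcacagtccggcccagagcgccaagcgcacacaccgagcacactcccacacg
GDF15: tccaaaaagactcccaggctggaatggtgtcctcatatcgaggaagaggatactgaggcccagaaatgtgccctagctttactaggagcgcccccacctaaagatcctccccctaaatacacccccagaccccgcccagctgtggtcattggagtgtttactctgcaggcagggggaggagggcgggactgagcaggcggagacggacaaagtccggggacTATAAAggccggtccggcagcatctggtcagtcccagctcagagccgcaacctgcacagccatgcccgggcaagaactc

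The kB consensus, searched on both strands, was found in 2 of the 31 promoters (6.45%), against 6.56% of the 11636 promoters of all protein-coding genes in the table. TATAAA, also searched on both strands, was found in 3 of 31 (9.68%), in GDF15 and ZG16B of the RelB-labelled group and FABP6 of the p52 group. In FABP6 the match lay on the strand opposite to the gene. TATAAA was in 11.3% of the 3296 promoters of the other genes with a control mean under 30 and in 6.86% of all. TGACTCA, the site of the AP-1 family, was in 0 of 31 and in 3.48% of all. The median GC content was 66% in these promoters, 61.3% in those of the other low genes and 64.3% in all, and the median number of CpG pairs was 21, 15 and 25 in the same order. The matches are letters in these windows and say nothing of binding.

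The 48 genes were low but not silent in the control, so that "near-silent" would overstate how low they were. Every gene had at least 4 reads in every control library, the control means ran from 6.4 to 29.3 with a median of 20.4, and 25 genes stood at 20 or more. The highest knockout mean ran from 80.3 to 735 with a median of 105.2. The ratio of the 2 means ran from 2.90 to 38.8 with a median of 5.92: it was at least 10 for 9 genes, at least 5 for 27 and under 4 for 12. In all 48 genes the 3 libraries of the highest group lay above the 3 controls, which the choice of genes nearly fixes. Among the 12381 genes with a mean of 10 or more, that held for 34.3% in the RelB-labelled libraries, 25.8% in the p52 knockout, 21.2% in the p50 knockout and 12.3% in the cRel-labelled libraries. In 47 of the 48, with CTSF as the exception, the 3 libraries lay above all 15 others, which taking the group with the highest mean also favours. Over all 12381 genes this held in some knockout for 23.3%: for 15.8% in the RelB-labelled libraries, 2.83% in the p52 knockout, 1.16% in the p50 knockout, 2.2% in the RelA knockout and 1.3% in the cRel-labelled libraries. In bulk RNA, a change in how many cells of a type were present and a change in RNA per cell cannot be told apart.

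**Figure D1:**
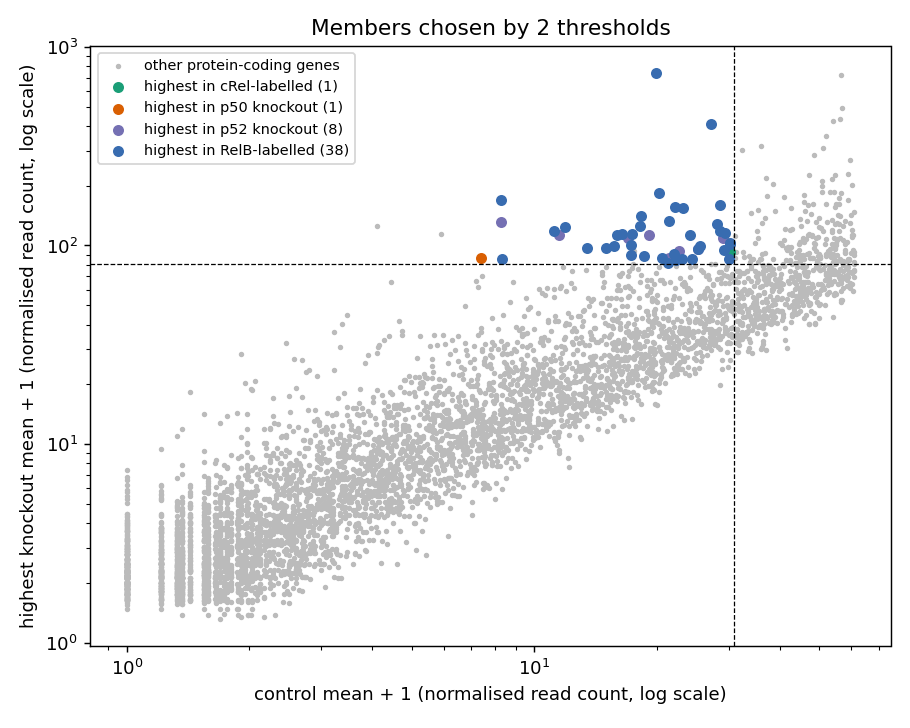
Control mean (x axis) against the highest knockout mean (y axis) of protein-coding genes with a control mean under 60, both as normalised read count plus 1 on log scales; dashed lines mark the thresholds of 30 and 80. Coloured points are the 48 genes by the knockout with the highest mean, and grey points in the upper left field are genes left out by name (SLC16A5 lies close to coloured points).

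Depth per library was 15.2 to 37.5 M reads (median 22.1 M), and a single read counted as 0.646 to 1.46 in the normalised values (means are given ± SD, n = 3 libraries). Of the targeted genes, NFKB1 averaged 4685 ± 56.4 in the p50 knockout and 7066 ± 305 in the control. NFKB2 averaged 6320 ± 172 in the p52 knockout and 8566 ± 138 in the control, and RELA 1368 ± 35.4 in the RelA knockout and 2208 ± 31.6 in the control. These 3 fell by limma (adjusted p of 3.13e-07, 1.48e-06 and 2.63e-07). The falls of NFKB1 and NFKB2 were not particular to those groups. NFKB1 was also lower in the RelA knockout and the RelB-labelled libraries (log2 differences -0.46 and -0.285). NFKB2 was also lower in the RelA knockout (-0.361) and was higher in the RelB-labelled libraries (0.342). RELA was called lower in the RelA knockout only. RELB mRNA was higher in its own group, at 4107 ± 170 in the RelB-labelled libraries and 3319 ± 158 in the control (log2 difference 0.31, limma adjusted p = 0.000169). REL stood at 1298 ± 16.6 in the cRel-labelled libraries and 1376 ± 457 in the control (-0.02, limma adjusted p = 0.959). REL had its lowest mean in the RelB-labelled libraries, at 938 ± 65.1 (log2 difference from the control -0.492, limma adjusted p = 0.024). Its controls were at 1554, 1717 and 856, and control 3 lay below all 3 RelB-labelled libraries (924, 1009 and 881). RELB was lower in the RelA knockout (-0.816) and higher in the cRel-labelled libraries and the p50 and p52 knockouts (0.38, 0.23 and 0.361). An edit that removes a protein need not lower its mRNA, so these levels cannot decide whether a label holds. Directions in the RelB-labelled and cRel-labelled groups therefore rest on the labels and the stated immunoblot. The third control, the third p52 library and the second RelA library differed from their groups by transcript length (rank correlations across genes of -0.452, -0.379 and -0.314 with the deviation from the group mean). The B-cell genes MS4A1, CD79A and PAX5 averaged 21620, 5928 and 6920 in the RelB-labelled libraries and 24580, 5401 and 5604 in the control.

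The RelB-labelled libraries held the 2 genes of the set that were highest by normalised read count. TBC1D30, which has a GTPase-activating domain for Rab proteins of vesicle traffic, stood at 752, 705 and 748 in the RelB-labelled libraries and 18.7, 14.8 and 23.3 in the control libraries, a ratio of 38.8. The 12 libraries of the other knockouts ran from 12.5 to 67.4. All 3 RelB-labelled libraries were thus more than 10 times as high as any other. CALD1, which encodes the actin- and myosin-binding protein caldesmon, stood at 417, 389 and 413 in the RelB-labelled libraries and 25.4, 31.5 and 21.3 in the control libraries, a ratio of 15.6. The other knockouts gave 18.5 to 47.4, overlapping the control. The p52 libraries were the lowest of them, at 21.5, 18.5 and 19.4.

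**Figure D2:**
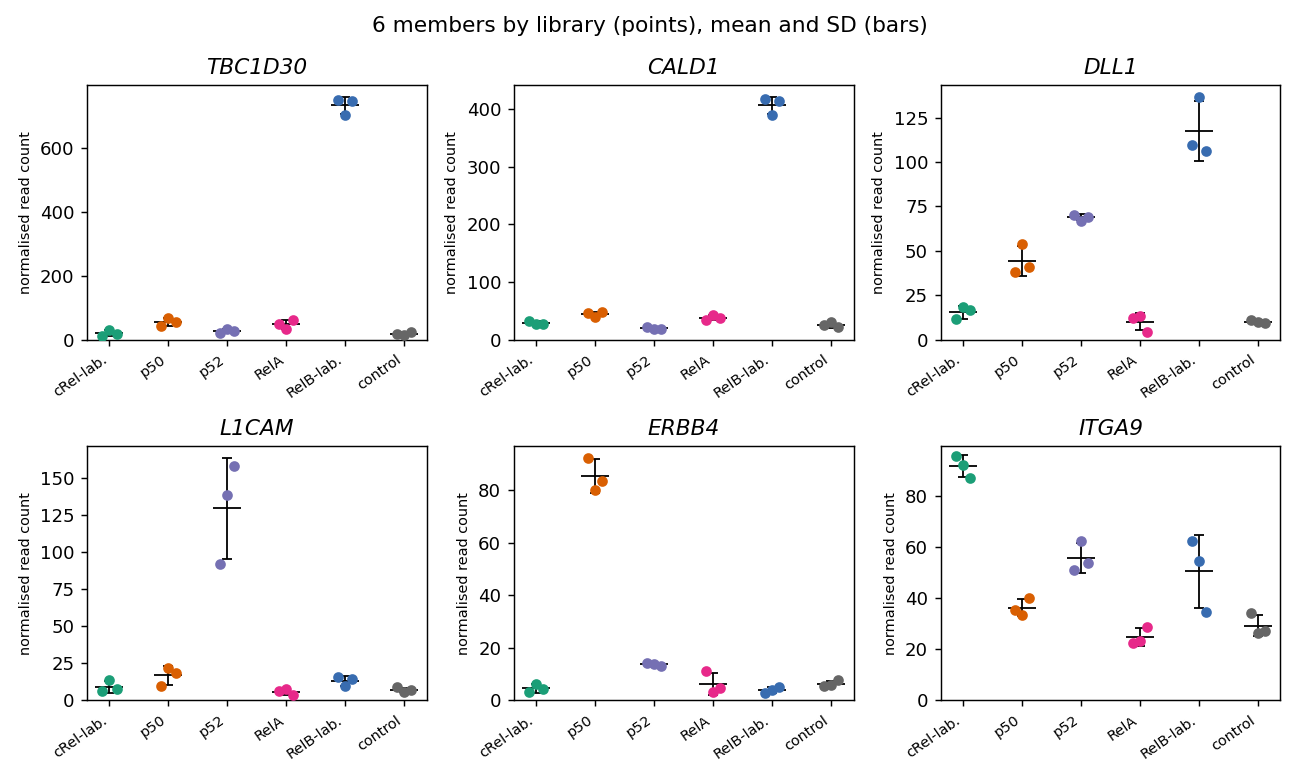
Normalised read count (y axis) of 6 genes in the 18 libraries, with points for libraries and bars for the mean and SD of 3. TBC1D30 and CALD1 stand high in the RelB-labelled libraries, DLL1 in the RelB-labelled libraries and, lower, in the p52 and p50 knockouts, L1CAM in the p52 knockout, ERBB4 in the p50 knockout and ITGA9 in the cRel-labelled libraries.

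Among secreted and matrix proteins, C3, the central component of complement, stood at 175, 204 and 168 in the RelB-labelled libraries and 25.4, 14.8 and 17.5 in the control libraries. It was also at 48, 83.2 and 75.1 in the p50 knockout and 35.8, 76.3 and 64.8 in the p52 knockout, but at 9.38 to 13.6 in the cRel-labelled and RelA libraries. C3 thus formed a step in which RelB-labelled, p50 and p52 libraries all lay above the control. ZG16B, a secreted lectin-like protein of glands, stood at 187, 139 and 149 in the RelB-labelled libraries, 53.7, 58.9 and 87.1 in the p52 knockout and 29.8, 28.6 and 24.6 in the control libraries. Its p50 libraries were at 19.0, 27.4 and 17.2, near or under the control. GDF15, a stress-induced cytokine of the TGF-beta family, averaged 140.2 ± 25.2 in the RelB-labelled libraries and 17.3 ± 4.27 in the control. PGF, placental growth factor of the VEGF family, stood at 132 ± 10.5 in the RelB-labelled libraries, against 20.5 ± 6.89 in the control, with 76.7 ± 15.8 in the p52 knockout and 68.8 ± 20.7 in the p50 knockout. MDK, the heparin-binding growth factor midkine, averaged 96.1 ± 10.4 in the RelB-labelled libraries and 12.5 ± 4.54 in the control, and its other groups were all at a mean of 21.4 or less. A2M, a broad protease inhibitor of plasma, stood at 123 ± 26.3 in the RelB-labelled libraries, against 10.9 ± 1.76 in the control. PCOLCE2, which enhances procollagen processing, averaged 89.1 ± 25.4 in the RelB-labelled libraries and 21.0 ± 4.21 in the control. LAMB3, a chain of the basement-membrane protein laminin, stood at 84.4 ± 17.9 in the RelB-labelled libraries, against 22.1 ± 3.81 in the control. COLGALT2, which adds galactose to collagen, averaged 112 ± 21.6 in the RelB-labelled libraries and 23.1 ± 4.0 in the control.

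The surface proteins of the RelB-labelled group were led by TSPAN11, a tetraspanin, at 178, 163 and 164 in the RelB-labelled libraries and 5.51, 7.89 and 8.40 in the control libraries, a ratio of 23.1. The other knockouts gave 8.24 to 32.7. DLL1, a ligand of Notch receptors, stood at 109, 137 and 106 in the RelB-labelled libraries, 70.4, 67.0 and 69.1 in the p52 knockout, 38, 53.7 and 40.8 in the p50 knockout and 11, 9.86 and 9.69 in the control libraries. The RelA libraries of DLL1, at 12.3, 13.4 and 4.61, overlapped the control. STEAP2, a metalloreductase, averaged 114 ± 5.92 in the RelB-labelled libraries and 16.4 ± 5.08 in the control. KCNQ1, a voltage-gated potassium channel, stood at 114 ± 9.17 in the RelB-labelled libraries, against 15.4 ± 4.84 in the control. CD6, a co-receptor of T cells and of some B cells, averaged 98.4 ± 13.1 in the RelB-labelled libraries and 24.5 ± 2.82 in the control. UPK2, a uroplakin of the bladder lining, stood at 98.4 ± 26.8 in the RelB-labelled libraries, against 14.7 ± 7.78 in the control. FCGRT, the heavy chain of the neonatal Fc receptor, averaged 94.1 ± 7.77 in the RelB-labelled libraries and 28.2 ± 7.34 in the control. OR2V1, an olfactory receptor of a large multigene family whose reads can be split between copies, stood at 88.3 ± 19.5 in the RelB-labelled libraries, against 16.3 ± 3.83 in the control.

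Of the transcription and chromatin factors, HES1, a repressor induced by Notch signalling, averaged 112 ± 17.7 in the RelB-labelled libraries and 15 ± 4.44 in the control. In the other knockouts its libraries ran from 9.55 to 33.5, all under its lowest RelB-labelled library. HOXB2, a homeobox factor of embryonic patterning, stood at 124 ± 29.5 in the RelB-labelled libraries, against 17.1 ± 3.69 in the control. TBX6 and TBX19 are T-box factors. TBX6 averaged 83.3 ± 10.8 in the RelB-labelled libraries and 21.3 ± 1.64 in the control. TBX19 stood at 84.2 ± 6.11 in the RelB-labelled libraries, against 23.4 ± 3.41 in the control. ETV5, an ETS-family factor downstream of growth factor receptors, averaged 85.9 ± 13.4 in the RelB-labelled libraries and 19.6 ± 4.31 in the control. SMARCA1, an ATPase of ISWI chromatin remodellers, stood at 127 ± 19.9 in the RelB-labelled libraries, against 27.1 ± 4.70 in the control, and its next group was the RelA knockout at 52 ± 9.53.

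The remaining RelB-labelled genes act in signalling, the cytoskeleton, membranes and lysosomes. CDC42EP5, an effector of the GTPase Cdc42, averaged 154 ± 6.49 in the RelB-labelled libraries and 22.2 ± 9.99 in the control. TMCC2, a transmembrane protein, stood at 155 ± 25.1 in the RelB-labelled libraries, against 21.1 ± 8.29 in the control, and at 82.6 ± 4.80 in the p52 knockout it was the single gene to reach 80 in 2 groups. MAPK10, the kinase JNK3, averaged 117 ± 25.0 in the RelB-labelled libraries and 27.6 ± 4.81 in the control. PPEF1, a calcium-binding phosphatase, averaged 80.3 ± 7.49 in the RelB-labelled libraries and 20.2 ± 2.61 in the control. PLEKHA1, a phosphoinositide-binding adaptor, stood at 88.0 ± 9.78 in the RelB-labelled libraries, against 17.6 ± 2.93 in the control.

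ZFYVE9, an endosomal anchor for SMAD proteins, averaged 102 ± 3.10 in the RelB-labelled libraries and 29.3 ± 2.11 in the control. CLVS1, a clavesin of clathrin-coated vesicles, stood at 99.8 ± 5.52 in the RelB-labelled libraries, against 16.3 ± 5.94 in the control. CKAP4, a protein of endoplasmic reticulum sheets, averaged 96.4 ± 16.1 in the RelB-labelled libraries and 14.0 ± 1.83 in the control. TEKT4, a tektin of cilia and flagella, stood at 95.2 ± 17.7 in the RelB-labelled libraries, against 24.3 ± 3.92 in the control. LZTS3 averaged 84.4 ± 13.9 in the RelB-labelled libraries and 29.1 ± 3.53 in the control, the lowest ratio of the 48 at 2.90. KLHDC8B, a kelch-domain protein, stood at 101 ± 8.68 in the RelB-labelled libraries, against 29.2 ± 8.97 in the control. CTSF, the lysosomal protease cathepsin F, stood at 58.3, 104 and 89.8 in the RelB-labelled libraries and 4.41, 11.8 and 5.82 in the control libraries. Its p52 libraries, at 28.6, 47.4 and 64.1, overlapped the RelB-labelled ones, so that CTSF was the only one of the 48 whose highest group did not lie above all other libraries.

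**Figure D3:**
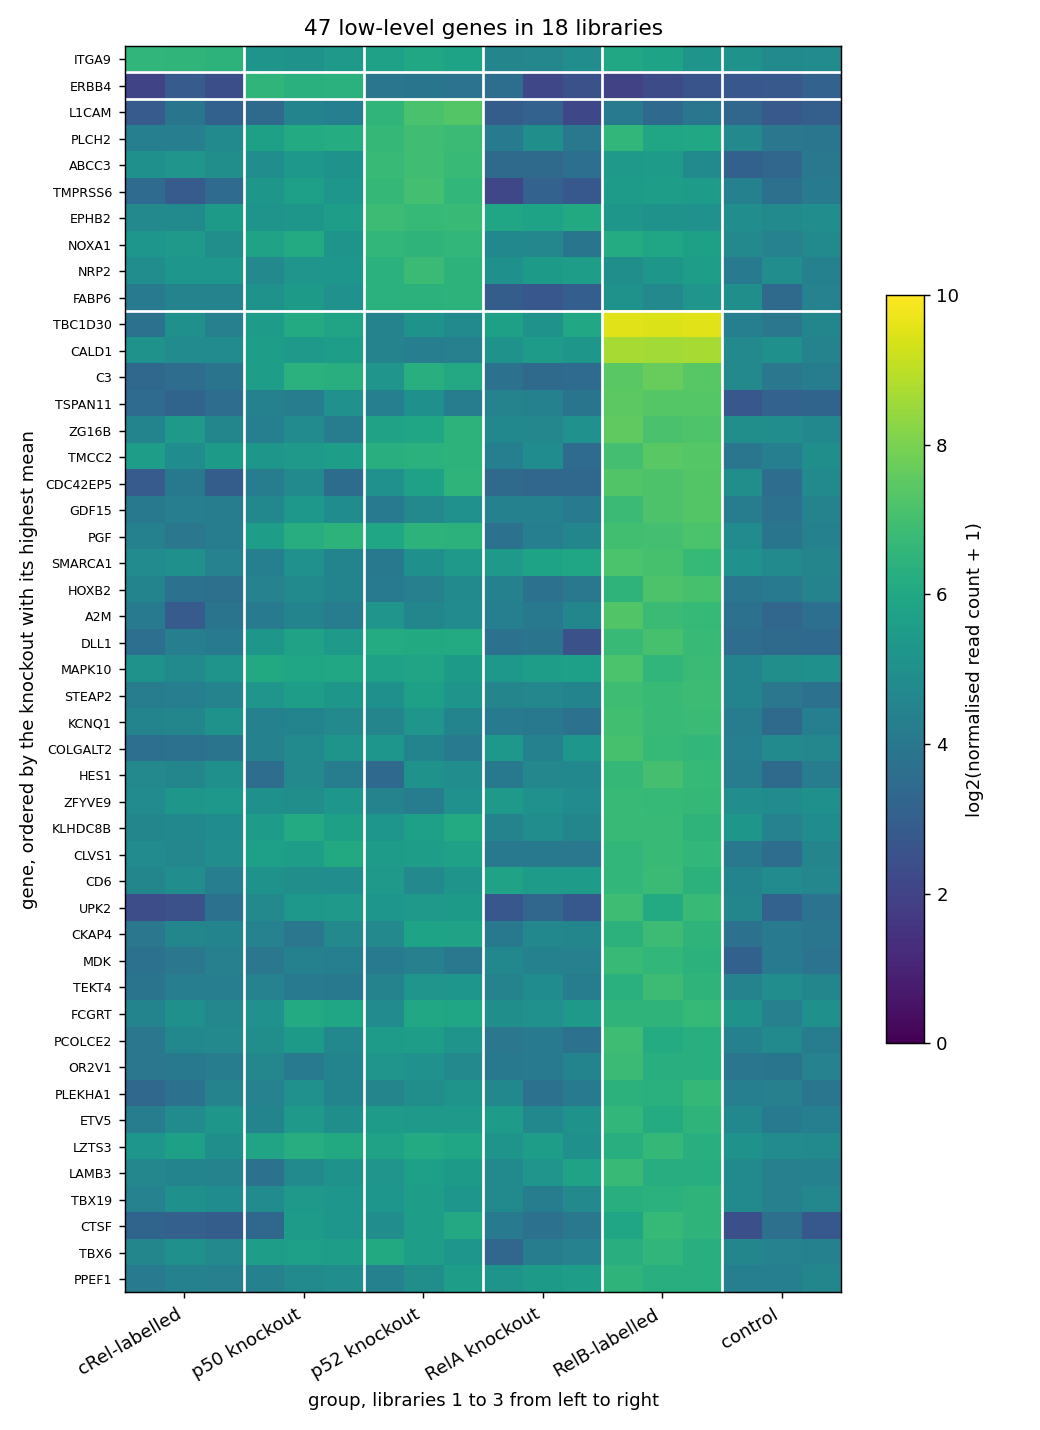
log2 of the normalised read count plus 1 (colour) for 47 of the 48 genes (rows) in the 18 libraries (columns, libraries 1 to 3 of each group from left to right, control last). Rows are ordered by the knockout with the highest mean and, within it, by that mean, so the RelB-labelled genes fill the lower block.

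The p52 knockout was highest for 8 genes, among them 5 membrane proteins. L1CAM, a neural adhesion molecule, stood at 91.9, 139 and 158 in the p52 knockout and 8.82, 5.91 and 7.11 in the control libraries, a ratio of 17.8. Its other knockout libraries ran from 3.45 to 22.1, all under the lowest p52 library. PLCH2, a phospholipase C, stood at 100.2, 121 and 112 in the p52 knockout, with 97.7, 60.2 and 61.2 in the RelB-labelled libraries, 50.7, 67.4 and 72.7 in the p50 knockout and 25.4, 14.8 and 14.2 in the control libraries. The highest RelB-labelled library of PLCH2 lay just under the lowest p52 library. ABCC3, an exporter of organic anions and bile salts, stood at 106, 123 and 105 in the p52 knockout and 7.72, 8.87 and 14.9 in the control libraries. TMPRSS6, the membrane protease matriptase-2 of iron regulation, stood at 100.2, 127 and 97.2 in the p52 knockout and 19.8, 11.8 and 16.2 in the control libraries. EPHB2, a receptor of ephrin-B ligands, stood at 116, 102 and 107 in the p52 knockout, 58.2, 54.8 and 65.6 in the RelA knockout and 28.7, 26.6 and 29.1 in the control libraries. The cRel-labelled, p50 and RelB-labelled libraries of EPHB2 ran from 25.0 to 48.2. NOXA1, an activator of NADPH oxidase, averaged 95.2 ± 5.35 in the p52 knockout and 24.2 ± 3.07 in the control. NRP2, a co-receptor of semaphorins and VEGF, averaged 93.2 ± 15.5 in the p52 knockout and 21.7 ± 6.20 in the control. FABP6, the ileal bile acid-binding protein, averaged 85.6 ± 2.16 in the p52 knockout and 20.5 ± 10.5 in the control.

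ERBB4, a receptor tyrosine kinase for neuregulins, stood at 92.3, 80.1 and 83.3 in the p50 knockout and 5.51, 5.91 and 7.76 in the control libraries, a ratio of 13.3. The p52 libraries were at 14.3, 13.9 and 13.0, and the cRel-labelled, RelA and RelB-labelled libraries ran from 2.92 to 11.2. ITGA9, the alpha-9 integrin chain, stood at 95.8, 92.4 and 87.3 in the cRel-labelled libraries and 34.2, 26.6 and 27.1 in the control libraries, a ratio of 3.13. Its p52 libraries were at 51.3, 62.4 and 54.0 and its RelB-labelled libraries at 62.7, 54.5 and 34.7. ITGA9 was the member closest to the control threshold, and without control 2 or control 3 its control mean no longer lay under 30.

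Read counts favour long transcripts, so levels between genes were compared per kilobase of exon (merged exons of GENCODE 29). On that scale CDC42EP5 was the highest of the 48, at 170.0 normalised counts per kilobase in the RelB-labelled libraries and 24.5 in the control. UPK2 followed at 89.0 in the RelB-labelled libraries and 13.3 in the control, TBC1D30 at 78.8 and 2.03, and FABP6 at 73.6 in the p52 knockout and 17.6 in the control. MAPK10 was the lowest, at 2.74 in the RelB-labelled libraries and 0.646 in the control. Its merged exons, taken over all annotated transcripts, came to 42646 bases, so its rank depends on the annotation too. The genes lay on 19 chromosomes, with 7 on chromosome 1, and 0 pairs of them were next to each other among the tested genes.

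The group next below the highest was most often p52 for the RelB-labelled genes. Of these 38 genes the second-highest mean was in the p52 knockout for 19, the p50 knockout for 12, the RelA knockout for 5 and the cRel-labelled libraries for 2. Of the 8 p52 genes it was in the RelB-labelled libraries for 4, the p50 knockout for 2 and the RelA knockout for 2. For ERBB4 and ITGA9 it was in the p52 knockout. The rule kept each of these means under that of the highest group. All 3 p52 libraries of the 38 RelB-labelled genes lay above all controls for 24 and below for 0 (25.8% and 26.7% of all genes), and the p50 libraries for 20 and 1 (21.2% and 23.8%). For the RelA libraries these counts were 12 and 3 (10.6% and 11.4%) and for the cRel-labelled libraries 4 and 3 (12.3% and 14.4%). These comparisons share the control libraries that chose the genes. ERBB4 was the single gene whose RelB-labelled libraries lay below all controls (35.7% of all genes).

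Whether a gene high in one knockout also differed among the others was tested on the pairs of knockouts that left out its highest group and the control. The choice of genes used the means in these pairs only in keeping each under that of the highest group. Limma was fitted across the same 12381 genes, and all 48 were among them; ERBB4 alone passed only through its highest group. Of the 38 genes highest in the RelB-labelled libraries, 29 were higher and 2 lower in the p52 knockout than in the cRel-labelled libraries, against 22.5% and 23.4% of all genes. Their median log2 difference was 0.85, against 0.00 over all genes. In the p50 knockout 18 were higher than in the cRel-labelled libraries, against 15.3% of all genes, and 0 were lower, against 15.9%; 22 and 0 passed at an unadjusted p under 0.05, and edgeR and DESeq2 each called 17 and 0. Relative to the RelA knockout, 20 were higher and 4 lower in the p52 knockout (26% and 26.5% of all genes), and 13 were higher and 3 lower in the p50 knockout (19.2% and 20%). Between the p52 and p50 knockouts 7 were higher and 2 lower in the p52 knockout (11% and 11.2%), for both directions together close to the share of all genes. Between the RelA knockout and the cRel-labelled libraries, 6 were higher and 3 lower in the RelA knockout (4.75% and 6.2%).

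Low genes in general shared this direction. Among 1458 other protein-coding genes with a mean of 10 to 50, 25.2% were higher and 6.38% lower in the p52 knockout than in the cRel-labelled libraries, 13.9% and 7.13% in the p50 knockout than in those libraries, and 27.6% and 8.92% in the p52 knockout than in the RelA knockout. Against the control, 37.9% of them were higher and 12.6% lower in the RelB-labelled libraries, 29.1% and 6.24% in the p52 knockout, and 15.6% and 5.35% in the p50 knockout. The part of this shift in the counts of the 48 genes was not tested, and 9 of the 38 genes had a mean of 50 or more. Without the 3 libraries that stood apart in transcript length, 25 of the 38 were higher and 2 lower in the p52 knockout than in the cRel-labelled libraries, 17 and 5 than in the RelA knockout, and 6 and 3 than in the p50 knockout. Between the RelA knockout and the cRel-labelled libraries these counts were 5 and 4. After quantile normalisation, which forces equal distributions on the libraries, 17 of the 38 genes were higher and 2 lower in the p52 knockout than in the cRel-labelled libraries, and 15 higher and 6 lower than in the RelA knockout. Without cRel-labelled library 1 or library 3, 4 genes in all were called between the RelA knockout and the cRel-labelled libraries.

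**Figure D4:**
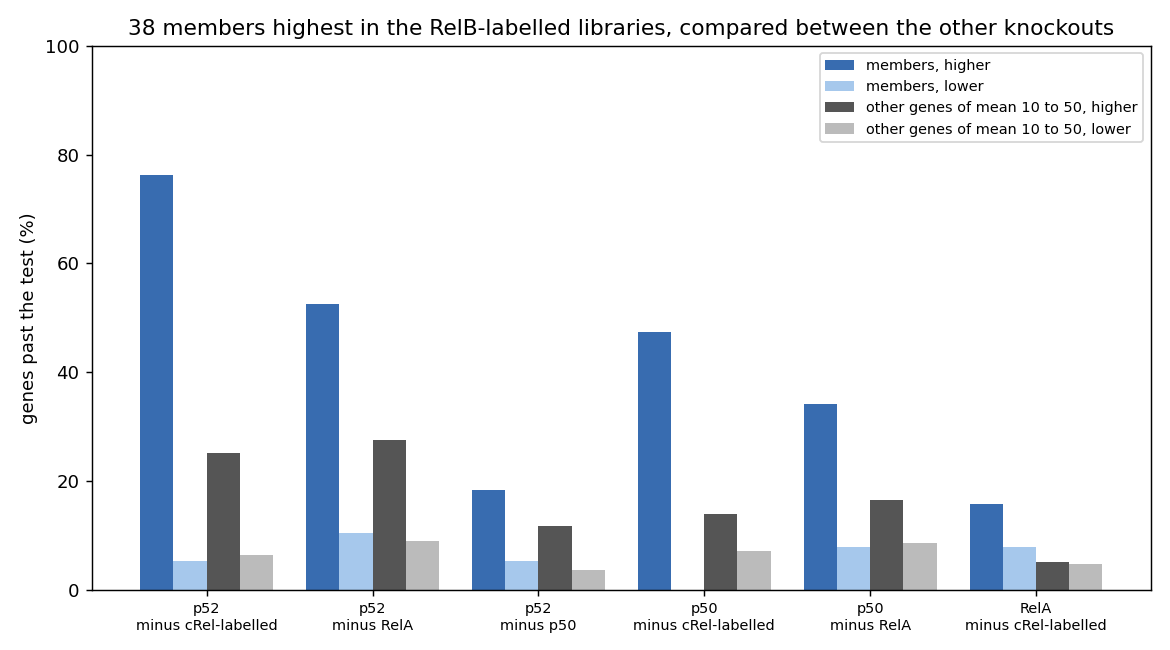
Percent of genes past the test (y axis, adjusted p under 0.05 by limma) in 6 pairs of knockouts (x axis), higher or lower in the first-named group. Blue bars are the 38 genes highest in the RelB-labelled libraries and grey bars the 1458 other protein-coding genes with a mean of 10 to 50, of which 25.2% were higher in the p52 knockout than in the cRel-labelled libraries.

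C3 averaged 68.8 ± 18.5 in the p50 knockout and 10.9 ± 1.22 in the RelA knockout (log2 difference 2.52, SE 0.26, adjusted p = 1.29e-07). It also stood higher in the p52 knockout than in the RelA knockout (log2 difference 2.27, SE 0.26, adjusted p = 2.33e-07) and in the p50 knockout than in the cRel-labelled libraries (log2 difference 2.48, SE 0.26, adjusted p = 2.77e-07). DLL1 averaged 68.9 ± 1.70 in the p52 knockout and 10.1 ± 4.80 in the RelA knockout (log2 difference 2.77, SE 0.27, adjusted p = 3.17e-08). PGF averaged 76.7 ± 15.8 in the p52 knockout and 17.4 ± 2.60 in the cRel-labelled libraries (log2 difference 2.07, SE 0.26, adjusted p = 1.59e-06), and UPK2 averaged 40.6 ± 3.22 in the p52 knockout and 7.15 ± 4.82 in the cRel-labelled libraries (log2 difference 2.5, SE 0.36, adjusted p = 8.38e-06). CDC42EP5 was higher in the p52 knockout than in the p50 knockout, at 57.6 ± 28.6 in the p52 knockout and 18.3 ± 7.86 in the p50 knockout (log2 difference 1.57, SE 0.38, adjusted p = 0.0044). ZG16B did the same, at 66.6 ± 18 in the p52 knockout and 21.2 ± 5.45 in the p50 knockout (log2 difference 1.60, SE 0.24, adjusted p = 3.86e-05). The calls with values given so far held in every setting that tested the gene. The setting with a mean of at least 50 left some of these genes out, DLL1 and CDC42EP5 among them. KLHDC8B, STEAP2, PCOLCE2, TMCC2 and TBX6 also rose in the p52 knockout relative to the RelA knockout, by 1.02, 0.73, 1.46, 2.16 and 1.64 on the log2 scale (limma adjusted p of 0.000899, 0.00622, 4.96e-05, 1.13e-06 and 8.09e-06). STEAP2 lost that call after quantile normalisation and without p52 library 2.

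Other genes went the opposite way. CALD1 averaged 19.8 ± 1.53 in the p52 knockout and 44.5 ± 3.94 in the p50 knockout (log2 difference -1.13, SE 0.17, adjusted p = 3.34e-05), and it was also lower in the p52 than in the RelA knockout (log2 difference -0.92, SE 0.17, adjusted p = 8.60e-05). TBC1D30, the highest by normalised read count, was lower in the p52 than in the p50 knockout as well, at 27.0 ± 6.09 in the p52 knockout and 56.0 ± 11.5 in the p50 knockout (log2 difference -1.03, SE 0.26, adjusted p = 0.00634). SMARCA1 averaged 24.6 ± 7.17 in the p50 knockout and 52 ± 9.53 in the RelA knockout (log2 difference -1.07, SE 0.28, adjusted p = 0.00398). The RelA knockout exceeded the cRel-labelled libraries for CD6, at 47.0 ± 4.86 in the RelA knockout and 23.6 ± 5.36 in the cRel-labelled libraries (log2 difference 0.98, SE 0.20, adjusted p = 0.00182), and for TBC1D30, PPEF1 and COLGALT2 (1.22, 1.10 and 1.23 on the log2 scale). HES1, HOXB2 and MDK were called in 0 of their 6 pairs by limma, edgeR and DESeq2, and at an unadjusted p under 0.05 HOXB2 passed in 1 and the other two in 0.

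For the 8 genes highest in the p52 knockout, the RelB-labelled libraries were higher than the RelA knockout in 6 and lower in 1 (33.1% and 34.1% of all genes), and the p50 knockout was higher than the RelA knockout in 6 and lower in 1 (19.2% and 20%). TMPRSS6 averaged 44.5 ± 1.21 in the RelB-labelled libraries and 5.65 ± 2.24 in the RelA knockout (log2 difference 2.83, SE 0.26, adjusted p = 3.32e-09), and 41.3 ± 6.16 in the p50 knockout. FABP6 averaged 31.4 ± 5.74 in the RelB-labelled libraries and 6.41 ± 0.712 in the RelA knockout (log2 difference 2.12, SE 0.28, adjusted p = 7.66e-07). PLCH2 and ABCC3 followed, higher in the RelB-labelled libraries than in the RelA knockout by 1.80 and 1.70 on the log2 scale (limma adjusted p of 2.70e-06 and 1.31e-06). EPHB2 was the gene that went the other way, at 34.7 ± 2.83 in the RelB-labelled libraries and 59.5 ± 5.54 in the RelA knockout (log2 difference -0.76, SE 0.19, adjusted p = 0.00112). Relative to the cRel-labelled libraries, 4 of the 8 were higher in the RelB-labelled libraries (32.4% of all genes) and 0 lower (33.4%; 0 at an unadjusted p under 0.05 by limma, and 0 by edgeR and DESeq2). In the p50 knockout 3 were higher (15.3%) and 0 lower (0 unadjusted by limma, 0 by edgeR and DESeq2). The RelA knockout was higher than the cRel-labelled libraries in 1 and lower in 3 (4.75% and 6.2% of all genes); edgeR and DESeq2 each called 1 higher and 2 lower. Between the RelB-labelled libraries and the p50 knockout 0 of the 8 passed by limma, at an adjusted or unadjusted p under 0.05, or by edgeR or DESeq2, while 25.4% of all genes were higher and 27.7% lower. NRP2 passed in 0 of its 6 pairs by limma, adjusted or unadjusted, and by edgeR and DESeq2.

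ERBB4 averaged 13.7 ± 0.693 in the p52 knockout, 4.59 ± 1.67 in the cRel-labelled libraries and 3.95 ± 1.10 in the RelB-labelled libraries. These means are a description with no test, since the gene passed the filter on low values only through its highest group. ITGA9 was higher in the p52 knockout than in the RelA knockout (log2 difference 1.14, SE 0.19, adjusted p = 3.92e-05), and in the RelB-labelled libraries than in the RelA knockout (log2 difference 0.96, SE 0.19, adjusted p = 0.00015). Between the RelB-labelled libraries and the p52 knockout ITGA9 did not pass (log2 difference -0.18, limma adjusted p = 0.477).

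The genes beside the 48 were examined next, as the nearest tested gene on each side in GENCODE 29, in the knockout that was highest for the gene between them. Of the 76 neighbours of the 38 RelB-labelled genes, 32 (42.1%) were higher and 24 (31.6%) lower in the RelB-labelled libraries than in the control, against 33.1% and 34.7% of all genes. Of the 16 neighbours of the 8 p52 genes, 3 were higher and 3 lower in the p52 knockout, against 24.5% and 26.4%. Both neighbours of ERBB4 were higher in the p50 knockout (17% of all genes), and 0 of the 2 beside ITGA9 were called in the cRel-labelled libraries (0 unadjusted, 0 by edgeR and DESeq2; 4.17% of all genes higher and 1.92% lower). Without the 3 libraries that differed by transcript length, 60 of the 96 neighbours were called, against 64 with them.

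Some neighbours were far higher themselves. BTNL9, a butyrophilin beside OR2V1, averaged 2832 ± 108 in the RelB-labelled libraries and 588 ± 72.8 in the control (log2 difference 2.27, adjusted p = 1.69e-14). MAL, a membrane-raft proteolipid beside TEKT4, averaged 727 ± 12.6 in the RelB-labelled libraries and 150.2 ± 15.8 in the control (log2 difference 2.27, adjusted p = 1.75e-10). NUAK2, a kinase beside TMCC2, averaged 284 ± 0.895 in the RelB-labelled libraries and 47.7 ± 6.63 in the control (log2 difference 2.56, adjusted p = 2.99e-11). HOXB3, beside HOXB2 in the HOXB cluster, averaged 201 ± 26 in the RelB-labelled libraries and 73.9 ± 9.98 in the control (log2 difference 1.43, adjusted p = 2.81e-09). YPEL3 beside TBX6, PLS1 beside PCOLCE2 and OCRL beside SMARCA1 rose by 1.72, 1.71 and 1.38 on the log2 scale in the RelB-labelled libraries. CACNA1G, a calcium channel beside ABCC3, averaged 69.0 ± 14.9 in the p52 knockout and 6.46 ± 2.5 in the control (log2 difference 3.27), and EXD3 beside NOXA1 rose by 1.45 there. The control means of CACNA1G, LRRC25 and ACTN3 were 6.46, 6.85 and 4.09, under the filter of 10, which also counts the high group. Their differences are therefore a description with no test, though they stay in the counts of neighbours called. Of those lower, TRA2B, a splicing factor beside ETV5, averaged 4448 ± 112 in the RelB-labelled libraries and 9794 ± 304 in the control (log2 difference -1.14, adjusted p = 4.19e-14), and DMBT1 beside PLEKHA1 averaged 3.72 ± 3.42 in the RelB-labelled libraries and 32.8 ± 7.31 in the control (log2 difference -3.05, adjusted p = 8.21e-07). Other higher neighbours were CPS1, IKZF2, NSMF, LEMD3, AGBL3, CAPRIN2, FLYWCH2, LENG8, LILRB1, PGPEP1, LRRC25, RPS6KL1, SKAP1, AGPAT9, CFAP69, SLC15A3, AMBRA1, CD46, XCL2, ACTN3, CCS and PHKA2. Other lower ones were IL2RB, KDM1A, PWWP2A, BPGM, TNFSF14, GPR108, EIF2B2, ERMARD, FAM120B, PDRG1, TSSC4, RGL1, TSEN15, OPA1, BTF3L4, C3orf62, GGH, C12orf75, DGKZ, NOSIP, U2SURP, NSMCE4A, DDRGK1, SFT2D2 and PPP4C.

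**Figure D5:**
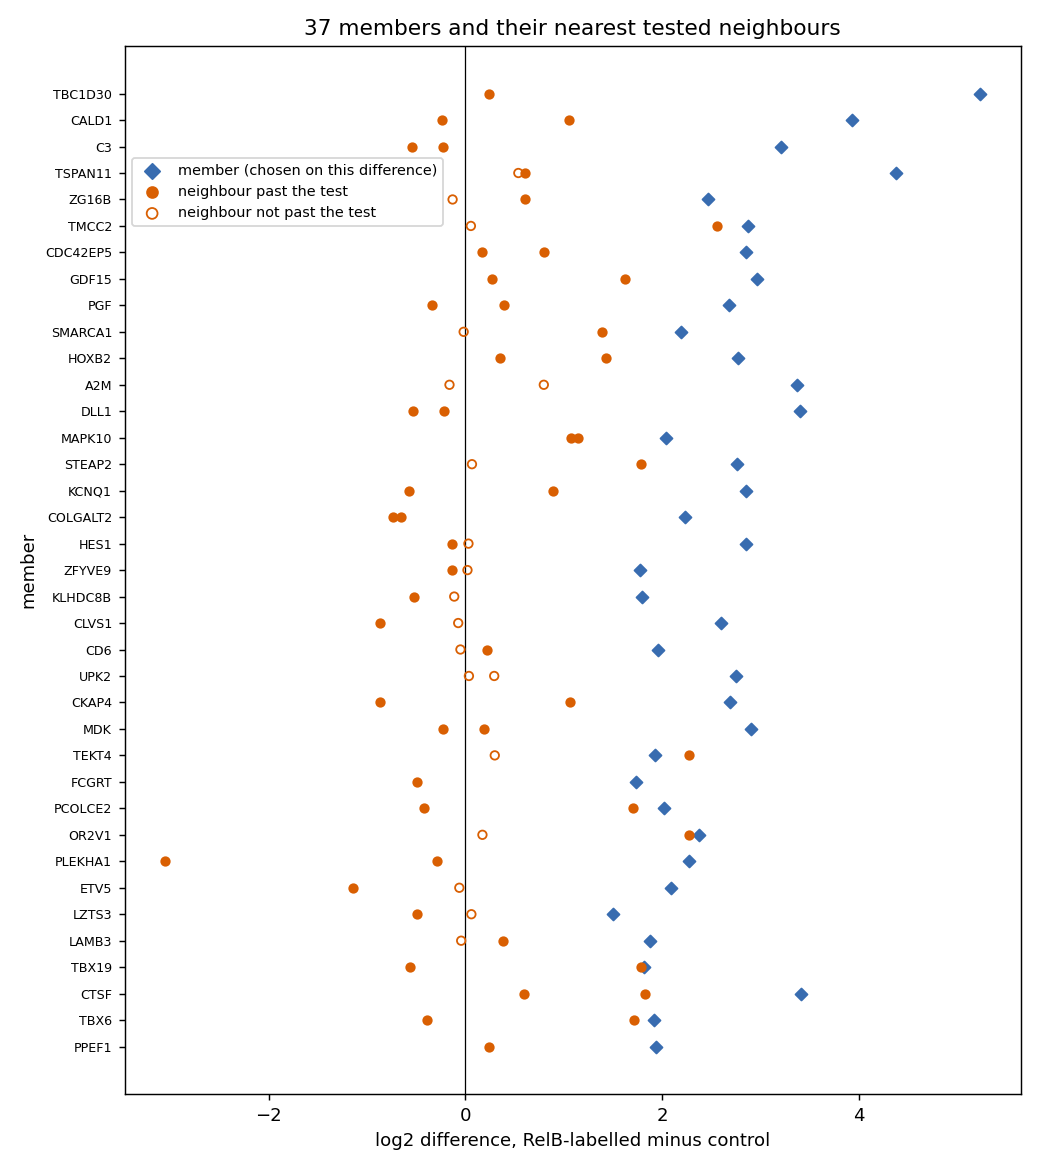
log2 difference between the RelB-labelled libraries and the control (x axis) for 37 of the 38 genes (diamonds, rows ordered by mean) and 71 of their nearest tested neighbours (circles, filled where past the test). The neighbours drawn lie on both sides of 0, 29 higher and 23 lower, with DMBT1 beside PLEKHA1 at -3.05.

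The sources used here do not say whether counting used the strand, so reads of overlapping genes cannot be told apart. In GENCODE 29, exons overlapped between MAPK10 and PTPN13 and ARHGAP24, CKAP4 and TCP11L2, UPK2 and BCL9L, KCNQ1 and KCNQ1OT1, HOXB2 and HOXB-AS1, ITGA9 and ITGA9-AS1, NOXA1 and ENTPD8, ZFYVE9 and CC2D1B, CLVS1 and ASPH, ETV5 and DGKG, and ZG16B and TEKT4 and a pseudogene each. PTPN13, a phosphatase, averaged 4483 ± 171 in the RelB-labelled libraries and 2136 ± 244 in the control (log2 difference 1.07, adjusted p = 6.65e-10). TCP11L2 averaged 78.3 ± 17.5 in the RelB-labelled libraries and 37.0 ± 8.34 in the control (log2 difference 1.06, adjusted p = 3.71e-05), and KCNQ1OT1, an antisense RNA, averaged 165 ± 6.99 in the RelB-labelled libraries and 91.0 ± 25.8 in the control (log2 difference 0.89, adjusted p = 0.000338).

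The gene lists that describe the cells moved in both directions. In the RelB-labelled libraries, 9 of 17 tested B-cell identity genes rose and 3 fell, beside 33.1% and 34.7% of all genes, led by the kinase BLK at 8975 ± 509 in the RelB-labelled libraries and 4111 ± 208 in the control. Among 29 genes listed as NF-kB targets of such lines, 17 rose and 6 fell. That list holds RELB and NFKB2, themselves targets of guides here, and both were among the 17. Of 22 interferon-stimulated genes 11 rose and 6 fell, and of 16 plasma-cell genes 5 rose and 7 fell. In the p52 knockout the same lists had 7 risen and 3 fallen, 15 and 8, 3 and 9, and 3 and 9, beside 24.5% and 26.4% of all genes. NFKB2, the gene targeted there, was among the 8 fallen NF-kB targets, and RELB among the 15 risen. None of the 48 genes was on these 4 lists.

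In the RelB-labelled libraries the summed level of each of the 8 lists of markers of other cell types lay above the control range. More tested markers rose than fell in every list except the epithelial one, against 33.1% and 34.7% of all genes higher and lower. The sums lean on a few genes already high in the control, such as MBP at 2122, SPARC at 1320 and COL1A1 at 1250. Other groups shared part of the rise. In the p50 knockout the monocyte sums ran from 1153 to 1249, above the control, and the endothelial sums from 680.5 to 743.7, below it. Only listed genes with a mean of at least 10 were tested. They were 8 of 20 T and NK cell, 5 of 20 monocyte, 6 of 16 epithelial and 9 of 16 fibroblast genes. For the endothelial, neuronal, germ-line and erythroid lists they were 4 of 12, 2 of 16, 4 of 24 and 1 of 17. CD6, one of the 48 genes, was left out of the T and NK cell list. Of its 7 other tested markers 3 rose and 1 fell, with a summed level of 2017 to 2238 in the RelB-labelled libraries and 1558 to 1644 in the control. NKG7 averaged 675 ± 45.5 in the RelB-labelled libraries and 411 ± 71.3 in the control (limma adjusted p = 1.366e-06), and BCL11B and TRAT1 rose too. GNLY fell to 8.01 ± 1.91 in the RelB-labelled libraries, against 29.4 ± 6.38 in the control. The T-cell chain CD3D averaged 0.319 in the RelB-labelled libraries and 0.368 in the control. Of 5 monocyte, macrophage and granulocyte markers 4 rose (CSF1R, ITGAX, ITGAM and VCAN) and 0 fell (0 unadjusted, 0 by edgeR and DESeq2), with sums of 1409 to 1435 in the RelB-labelled libraries and 797 to 818 in the control. CSF1R was at 747 ± 15.5 in the RelB-labelled libraries and 389 ± 17.6 in the control, while CD14 averaged 1.15 in the RelB-labelled libraries and 1.13 in the control. LYZ, S100A9 and MPO, also too low to test, averaged 7.51, 1.44 and 0.805 in the RelB-labelled libraries. In the control they averaged 5.71, 3.44 and 3.60.

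Of 6 epithelial markers 2 rose and 2 fell, with sums of 646 to 757 in the RelB-labelled libraries and 457 to 518 in the control. The adhesion molecule CDH1 averaged 372 ± 23.4 in the RelB-labelled libraries and 132 ± 23.5 in the control (limma adjusted p = 1.684e-10), and MUC1 35.1 ± 3.93 in the RelB-labelled libraries and 19.6 ± 5.26 in the control. SFN fell to 12.4 ± 3.35 in the RelB-labelled libraries, against 24.7 ± 3.24 in the control, and KRT18 was at 0 in the RelB-labelled libraries and 1.53 in the control. Of 9 fibroblast markers 3 rose and 1 fell, with sums of 4120 to 4436 in the RelB-labelled libraries and 3170 to 3350 in the control. SPARC averaged 2048 ± 48.1 in the RelB-labelled libraries and 1320 ± 40.3 in the control (limma adjusted p = 1.228e-09). TAGLN averaged 272 ± 19.7 in the RelB-labelled libraries and 126.5 ± 15.7 in the control. ACTA2 rose too, THY1 fell, and the collagen chain COL1A2 averaged 1.49 in the RelB-labelled libraries and 1.98 in the control.

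Of 4 endothelial markers 2 rose (TIE1 and ESAM) and 0 fell, with sums of 1060 to 1165 in the RelB-labelled libraries and 792 to 831 in the control. Both tested neuronal and glial markers, MBP and RBFOX3, rose, with sums of 3226 to 3650 in the RelB-labelled libraries and 1998 to 2230 in the control. For these lists 0 fell at an unadjusted p under 0.05 by limma or by edgeR and DESeq2. Of 4 germ-line genes 2 rose (PRAME and MAGEC1) and 1 fell (MAGEA3), with sums of 395 to 423 in the RelB-labelled libraries and 199 to 237 in the control. The single tested erythroid or megakaryocyte marker, GP1BA, rose, with sums over the list of 62.7 to 105.2 in the RelB-labelled libraries and 31.7 to 44.4 in the control. The part of these markers in the levels of the 48 genes was not tested.

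In the p52 knockout the summed level of each of the 8 lists lay above the control range as well. Of all genes, 24.5% were higher and 26.4% lower there, so that a count such as 1 of 4 is near the general share. Without CD6, 0 of 7 T and NK markers rose and 2 fell (1 rose at an unadjusted p under 0.05 and 0 by edgeR and DESeq2), 4 of 5 monocyte markers rose and 1 fell, 4 of 9 fibroblast markers rose and 1 fell, and 1 of 4 endothelial markers rose and 1 fell. Both neuronal markers rose. The other counts were 1 risen of 6 epithelial and 1 of 4 germ-line genes, with 0 fallen in either list by limma (0 unadjusted), edgeR or DESeq2, and 0 of 1 for GP1BA (1 risen unadjusted, 0 by edgeR and DESeq2).

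The thresholds cut through a continuous range of values. Just inside the knockout threshold lay PPEF1 at 80.3, TBX6 at 83.3, CTSF at 84.1, TBX19 at 84.2 and LAMB3 at 84.4, all in the RelB-labelled libraries. Just outside lay ELOVL7, CRAT and MERTK at 79.7, 79.2 and 77.6 in the RelB-labelled libraries and ZNF467 and EMX1 at 79.8 and 77.8 in the p52 knockout. Just inside the control threshold lay ITGA9 at 29.3, ZFYVE9 at 29.3, KLHDC8B at 29.2 and LZTS3 at 29.1. Just outside it lay KIAA1217, GPC4, FSBP, ATP4A and PPM1L, at 30.1 to 31.6. ATP4A, the gastric proton pump, averaged 301 ± 49.9 in the p52 knockout and 31.4 ± 11.2 in the control. With a control threshold of 20 the set had 23 genes and with 40 it had 79. With a knockout threshold of 60 it had 122 and with 100 it had 26.

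The reverse selection, a control mean of at least 80 and a knockout mean under 30, gave 3 protein-coding genes, all in the RelB-labelled libraries. EDN1, the vasoconstrictor endothelin-1, averaged 28.6 ± 1.72 in the RelB-labelled libraries and 85.1 ± 5.18 in the control. PTGER4, a prostaglandin E2 receptor, averaged 26.2 ± 11.6 in the RelB-labelled libraries and 262 ± 49.1 in the control. FAM46C, a poly(A) polymerase of plasma cells, averaged 15.6 ± 3.97 in the RelB-labelled libraries and 86.0 ± 19.8 in the control. These 3 were chosen by the same means and have no test here either.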

How the data were processed

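Polyadenylated RNA from 18 libraries was counted per gene. The authors deposited normalised read counts, used here as a signal: whole reads divided by a size factor per library. The submitters' processing notes name GRCh37, STAR 2.5.2b, featureCounts 1.5.1 and DESeq2 1.14.1, with no role or order. Dividing by the step of low values gave whole reads for 100% of 308790 values within 0.0001.

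The 48 genes, the gene lists and the neighbour rule were chosen with earlier results of these data known. Genes with a mean of at least 10 over all libraries (12381) were tested on log2(value + 1) in 1 limma fit (3.58.1, R 4.3.3) with trend over all 6 groups, Benjamini-Hochberg adjustment per comparison and a threshold of 0.05. Differences are on that scale, which understates changes of low genes. edgeR 4.0.16 (quasi-likelihood) and DESeq2 1.42.0 on the recovered reads, other pseudocounts, filters, scalings, a replicate block and leaving out each library were alternatives. Every one of the 48 genes is named, except 1 that is not reported here with some other genes, and it stays in the counts; library values are given for up to 5 per knockout and where groups overlap.

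Replicate numbers paired the libraries only for the p50 knockout and the cRel-labelled libraries, by the data alone: correlations of deviations were 0.2, 0.189 and 0.165, and the other 14 comparisons had a pair at 0.1 or less. Positions are those of GENCODE 29 and RefSeq (GRCh38), used for names, neighbours and promoters.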

Additional observations from a re-analysis of the deposited data

Results flagged for a closer look

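Only protein-coding genes were chosen, and 4 of 1775 other genes met both thresholds, all in the RelB-labelled libraries. XXYLT1-AS2, an antisense RNA, averaged 88.7 in the RelB-labelled libraries and 22.1 ± 6.78 in the control. PTPRVP, a pseudogene, averaged 150.0 in the RelB-labelled libraries and 24 ± 12.7 in the control. An unnamed antisense RNA, listed under a clone name, averaged 89.7 in the RelB-labelled libraries and 6.98 ± 4.36 in the control. EMR4P, a pseudogene, averaged 90.5 in the RelB-labelled libraries and 23.8 ± 3.87 in the control. Reads of pseudogenes can be shared with near-identical copies.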

How the results depend on the processing

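The number of genes chosen was 48, and it was 23 with a control mean under 20, 79 under 40, 122 with a knockout mean of at least 60 and 26 with at least 100. It ran from 46 to 51 when each library was left out. With group medians 41 of the 48 stayed, with TMM size factors 47, and without the 3 libraries apart in transcript length 45. With a mean of at least 50, only 11 of the 48 genes were tested, 9 of the 38 RelB-labelled genes among them. Calls between knockouts then numbered 41, in place of 139 with ERBB4's. The highest group counts in that mean, so the calls at this filter are a description. For the 9 RelB-labelled genes they numbered 8 (p52 against cRel-labelled), 8 (p52 against RelA) and 5 (p52 against p50). They numbered 6 for p50 against cRel-labelled, 5 for p50 against RelA and 2 for RelA against cRel-labelled. Of the 8 p52 genes only PLCH2 and EPHB2 were tested. Their calls numbered 1, 2 and 1 (p50 against cRel-labelled, p50 against RelA, RelA against cRel-labelled). For RelB-labelled against cRel-labelled and against RelA their calls numbered 1 and 2. After quantile normalisation 19 of the 38 were called for p52 against cRel-labelled, in place of 31, and 2 of the 8 for RelB-labelled against cRel-labelled, in place of 4; the cause was not tested. Leaving out each library, calls for RelA against cRel-labelled ran from 4 to 9 for the 38 genes. Over all genes, calls against the control ran from 448 to 926 for the cRel-labelled libraries (754 with all; 476 and 448 without cRel-labelled 2 and 3, 481 without control 3) and from 413 to 849 for the RelA knockout (687 with all; 452 and 413 without RelA 1 and 3, 442 without control 1). With the replicate block, calls of the 38 genes were 18 for the paired p50 and cRel-labelled libraries, as without it, and 30 (p52 against cRel-labelled), 24 (p52 against RelA), 9 (p52 against p50), 16 (p50 against RelA) and 8 (RelA against cRel-labelled), where the libraries share only a number. Of 66 comparisons of single genes between knockouts (with ERBB4's) under 1808 alternatives, 112 lost the call and 0 reversed. Of calls of the 38 genes, the share higher was 71.4% after quantile normalisation against 83.3% for p52 against RelA, 62.5% against 77.8% for p52 against p50, and 83.3% by edgeR and DESeq2 against 66.7% for RelA against cRel-labelled.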
